A study of Mus musculus with 21 samples.

Results

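The comparison described here is knockdown of Esrp2-as against control in M6, a mouse mammary tumour cell line. Its members are the 7 of 21 sequenced samples whose labels give the cell line M6, which stand for 4 of 14 biological replicates. The other samples are of M27H4, a second line from tumours of the same kind of mouse, and of the preadipocyte line 3T3-L1, in both of which Esrp2-as was overexpressed. M6 comes from a mammary tumour of the C3(1)/SV40 T antigen mouse, in which the rat C3(1) promoter drives the viral T antigen in epithelium, so control and knockdown cells both carry that transgene. Cells grew in DMEM with fetal calf serum. The knockdown group (2 replicates) received LNA antisense gapmers against Esrp2-as. The control group (2 replicates) is labelled an empty vector control, and the labels name no control gapmer, so a response to any gapmer and a response to loss of Esrp2-as cannot be told apart. M6 is a single line, neither a clone nor a time after transfection is given, and nothing beyond the words "biological rep" says that replicates were separate cultures. P values then measure only a spread between samples, which may be technical. Except in fits of M6 alone, that spread was estimated over all 6 groups, with replicates of M27H4 and 3T3-L1 included.

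Esrp2-as is a long noncoding RNA transcribed from the opposite strand of Esrp2, whose protein, with that of Esrp1, directs epithelial patterns of alternative splicing. Gapmers are short DNA-like oligonucleotides with locked ends that pair with an RNA in the nucleus and direct RNase H to cut it. In cells with SV40 T antigen, the viral protein binds p53 and the retinoblastoma family and blocks much of their function. Mammary tumour cells also release growth factors, cytokines and proteases that act on neighbouring cells, and several of these genes are described below.

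All 7 columns were deep, at 44180732 to 138313667 counts, and the summed replicates held 44180732 to 328493417. The sequencing lane is read here from the code that ends each column's header. Control 1 and knockdown 1 came from a lane that held M6 libraries alone, called the M6 lane here, and knockdown 2 and control 2 came from it and from shared lanes that also held libraries of the other lines. In knockdown 2 and in control 2 the code that opens the header also differed between the M6 lane and the shared lanes. Lane and whatever that code marks cannot be told apart there. Columns of the same replicate correlated at 0.978 to 0.984 (log2 CPM, across genes, which are not independent replicates). A control and a knockdown column with the same replicate number correlated at 0.962 to 0.973, more closely than 2 columns of the same group with different numbers, at 0.937 to 0.957. Replicate numbers therefore went together across groups, and 2 fits of edgeR were made, called here unpaired and paired, the second with the replicate number as a block. Genes called in both are described mainly by the first, and genes called only in the paired fit by the second. A gene was called where its p, adjusted over all 21237 genes tested, was under 0.05. Levels are TMM-normalised CPM, counts scaled to library size, and differences are log2 of knockdown over control. Residual ribosomal and other small structured RNA took 4.28 to 8.5% of the counts of a column, and mitochondrially encoded genes 0.27 to 0.619%.

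Epithelial origin was checked against markers. Krt8, a luminal keratin, stood at 658 and 1120 CPM in the controls and at 786 and 1250 CPM in the knockdown, and Krt14, a basal keratin, at 1080 and 1840 CPM against 588 and 1240 CPM. Both were abundant in all 4 replicates, as was Cdh1, the epithelial adhesion molecule E-cadherin, at 750 and 472 CPM against 482 and 363 CPM. Luminal markers summed to 1640 and 2690 CPM in the controls and to 1990 and 2930 CPM in the knockdown, with 4 of 15 at 0 in all M6 replicates. Basal markers summed to 1370 and 2190 CPM against 825 and 1600 CPM, with 1 of 10 at 0. Immune markers summed to 8.38 and 13.8 CPM in the controls and to 9.39 and 12 CPM in the knockdown, most of it Csf1r at 6.94 to 11.3 CPM, with 3 of 10 at 0 in all M6 replicates, and endothelial markers to 0.62 CPM at most, with 5 of 10 at 0. Fibroblast markers summed to 41 and 60.2 CPM in the controls and to 30.2 and 53.6 CPM in the knockdown, with none of 10 at 0. The levels of Col1a2 and Col3a1 went with the lane. Control 1 and knockdown 1, from the M6 lane only, still summed to 41 and 30.2 CPM over the list, nearly all from other members. Col1a2, a chain of fibrillar collagen, stood at 0 to 0.247 CPM of the column total in the 4 columns of the M6 lane and at 14.9 to 24.1 CPM in the 3 M6 columns of shared lanes, where 3T3-L1 columns had 2930 to 3740 CPM. Col3a1 was at 0 in all 4 columns of the M6 lane and at 5.54 to 14.9 CPM in the other 3. Replicate 2 of both groups thus held counts of both these genes that columns of the M6 lane nearly lacked. Counts of called genes are therefore also given for the M6 lane alone.

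The targeted RNA was read first. Esrp2-as (1810019D21Rik, ENSMUSG00000086390, GRCm38 chromosome 8, 106135400 to 106138525, plus strand) had 25 counts in knockdown 1 and 50 and 102 counts in the 2 columns of knockdown 2. The 4 control columns held 143, 179, 258 and 310 counts. As a level this was 2.96 and 2.42 CPM in control and 0.527 and 0.851 CPM in knockdown replicates. Every knockdown column lay below every control column, with a log2 difference of -1.92 (SE 0.55), or 3.77-fold lower, which did not pass the threshold (edgeR adjusted p = 0.363 unpaired and 0.19 paired). Esrp2, on the opposite strand (ENSMUSG00000084128, 106130319 to 106136974), stood at 65.9 and 58.8 CPM in the controls and at 53.9 and 55.6 CPM in the knockdown (log2 -0.19, SE 0.23, adjusted p = 1 unpaired and 0.73 paired). The genes overlap and the strand setting of the counting is not given in the sources used here, so reads of the overlap make both values uncertain. Esrp1, the paralogue, was at 122 and 106 CPM against 96.1 and 95.6 CPM (adjusted p = 1 unpaired and 0.536 paired).

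Over all genes tested 9314 stood higher and 11346 lower in the knockdown. The unpaired fit called 29 of 21237 genes (0.137%), 26 higher (0.122% of those tested) and 3 lower (0.0141%). The paired fit called 293 (1.38%), 194 higher (0.914%) and 99 lower (0.466%), and held all 29. Of the 293, 278 had groups that did not overlap, against 26.1% of all genes tested. In both pairs 289 moved in the same direction, where over all genes tested 5276 were higher and 6122 lower in both. The 293 were called on these same values, so neither count supports the calls. Without the block 257 of the 293 had an unadjusted p under 0.05. With only the columns of the M6 lane the paired fit called 424 genes, 244 higher and 180 lower, among them 250 of the 293 (85.3%), and 28 of the 29. The unpaired fit on those columns called 41, among them 24 of the 29 (82.8%). A fit of the 4 M6 replicates alone, with 783 genes at an unadjusted p under 0.05, called 0. The median difference over all genes was -0.03, so a list median is read beside that value. Counts of list members called are read beside the shares of all genes called.

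**Figure D1:**
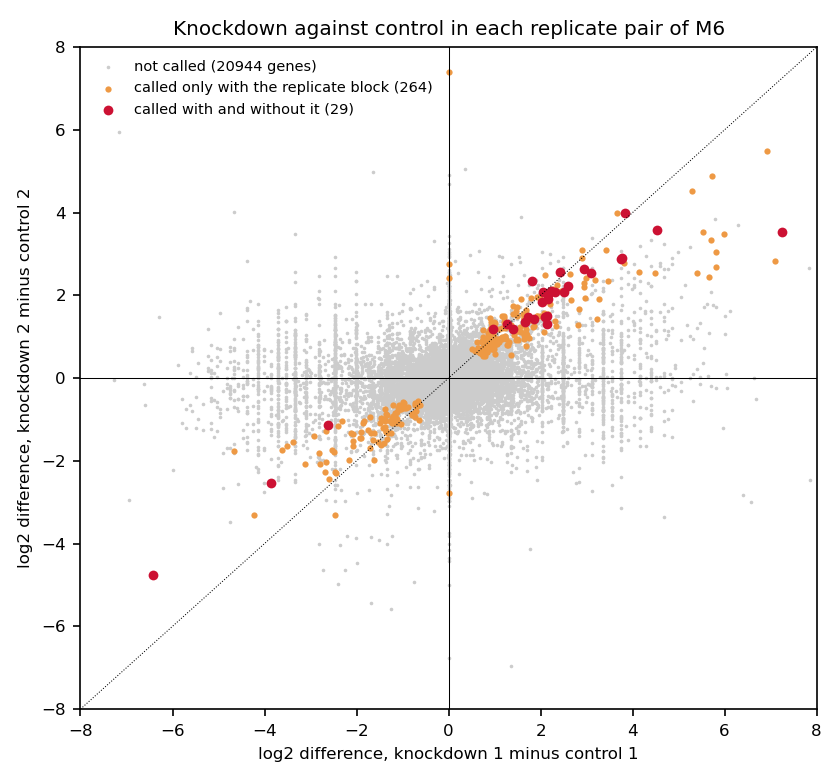
Log2 difference of knockdown 1 from control 1 (horizontal) and of knockdown 2 from control 2 (vertical) for each gene tested, with genes called in both fits in red (29), genes called only with the replicate block in orange and all others in grey. All 29 red points lie at the upper right or lower left, where both pairs moved in the same direction, and 19 uncalled genes lie outside the axes.

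Of the genes called in both fits, 2 were on the lists of p53 targets. Ccng1 (chromosome 11, 40748552 to 40755311), which encodes the p53 target cyclin G1, stood at 85.8 and 103 CPM in the controls and at 386 and 413 CPM in the knockdown. Its groups lay far apart, with differences of 2.17 and 2.00 in the 2 pairs and 2.08 overall (SE 0.21, edgeR adjusted p = 0.00144 unpaired and 0.000989 paired). Eda2r (chromosome X, 97333840 to 97377216), a TNF-family receptor for the ectodysplasin isoform EDA-A2, rose from 2.36 and 2.84 CPM to 18.4 and 17.6 CPM (log2 2.78, SE 0.34, adjusted p = 0.00479 unpaired and 0.00166 paired). Called only in the paired fit were Trp53inp1, a stress-induced nuclear protein, from 58.3 and 46.7 CPM to 114 and 97.7 CPM, and Zmat3, an RNA-binding protein, from 11.4 and 7.85 CPM to 26.5 and 18 CPM. Apaf1, the core of the apoptosome, went from 40.1 and 32.8 CPM to 62.8 and 54.7 CPM, and Sesn2, a stress-induced regulator of growth signalling, from 8.88 and 11.1 CPM to 18.7 and 20.9 CPM (paired adjusted p from 0.00446 for Trp53inp1 to 0.0375 for Apaf1). Cdkn1a, the cell cycle inhibitor p21, stood at 4.6 and 3.96 CPM against 17.7 and 19 CPM, groups that do not overlap, but passed neither fit (log2 2.10, adjusted p = 0.117 unpaired and 0.0887 paired).

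The p53 targets were kept in 3 lists of 12 genes by role. Over all genes tested 0.122% were called higher unpaired and 0.914% paired. Of the arrest and feedback genes 9 of 12 were higher, 1 called unpaired and 3 paired, with a median of 0.42 that was 1.09 without control 1. Of the cell death genes 10 of 12 were higher, 1 called unpaired and 2 paired, with a median of 0.58. Of the metabolism and repair genes 6 were higher and 6 lower, with 1 called in the paired fit and a median of 0.02. Death genes without a call included Tnfrsf10b, the TRAIL receptor, at 23.1 and 24.6 CPM against 34.1 and 35 CPM, and Bax, the pore-forming protein of mitochondria, at 24 and 36.5 CPM against 34.7 and 60.2 CPM. Among 11 genes of a list that joins the p53 and RB families with cell cycle inhibitors of the Cdkn1 and Cdkn2 groups, 0 were higher. Of these Rb1 fell in the paired fit, from 88.8 and 39.1 CPM to 41.7 and 23.6 CPM (adjusted p = 0.0149 paired, 0.65 unpaired). Its groups overlap, since control 2 lay below knockdown 1.

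Among 10 multidrug ABC transporters, pumps that carry drugs out of cells, 9 were higher, with a median of 0.57. In both pairs 6 were higher, against 5276 of all 21237 genes tested. The unpaired fit called 2 and the paired fit 4, all higher (background 0.122% and 0.914%). Abcb1b (chromosome 5, 8798147 to 8866315) stood at 14.9 and 15.5 CPM in the controls and at 69.7 and 66.3 CPM in the knockdown (log2 2.16, SE 0.24, adjusted p = 0.00221 unpaired and 0.000631 paired). Its neighbour Abcb1a rose from 9.48 and 6.31 CPM to 39.5 and 26.6 CPM (adjusted p = 0.0274 unpaired). Both encode P-glycoproteins of closely related sequence, between which counting could split reads, so the share of each is uncertain. Abcc4, an exporter of cyclic nucleotides and prostaglandins, and Abcc1, an exporter of glutathione conjugates, rose in the paired fit, from 78.6 and 52.5 CPM to 152 and 127 CPM and from 151 and 136 CPM to 275 and 270 CPM.

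Upstream sequence is shown for 2 sets of genes that rose, those whose RefSeq promoter windows hold the decamer of the p53 half-site and those that hold the AP-1 letters TGANTCA. Each window covers 250 bases before and 50 after the RefSeq start (GRCm38.p6), and both strands were searched. Windows were matched by symbol for 19 of the 26 genes that rose unpaired, for 141 of the 194 that rose paired, and for 12542 genes tested. The p53 decamer was in a window of 2 of the 19 genes (Ccng1 and Abcb1b, 10.5%) and of 11 of the 141 (7.8%), against 8.68% of all genes with a window. Both genes that hold it are printed from 250 bases before the start to the base before it, 5′ to 3′ along the gene's strand, with the match in capitals. It begins 185 bases before the start in Ccng1 (chr11:40755287-40755536, minus strand) and 191 bases before it in Abcb1b (chr5:8797897-8798146, plus strand), and overlaps no other motif searched.
Ccng1: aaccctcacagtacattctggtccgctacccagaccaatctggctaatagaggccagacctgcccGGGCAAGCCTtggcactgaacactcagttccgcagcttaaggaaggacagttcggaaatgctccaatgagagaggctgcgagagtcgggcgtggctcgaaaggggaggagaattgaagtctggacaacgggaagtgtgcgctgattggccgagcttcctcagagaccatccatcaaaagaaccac
Abcb1b: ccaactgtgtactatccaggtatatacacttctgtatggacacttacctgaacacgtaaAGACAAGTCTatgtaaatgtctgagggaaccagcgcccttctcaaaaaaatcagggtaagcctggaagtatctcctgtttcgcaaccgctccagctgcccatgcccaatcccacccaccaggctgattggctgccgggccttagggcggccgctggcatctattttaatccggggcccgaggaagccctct

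AP-1 letters were in a window of 21 of the 141 genes that rose paired (14.9%), of 6 of 74 that fell paired (8.11%) and of 882 of all 12542 (7.03%). Among the 19 genes that rose unpaired they were in 2 (10.5%). These shares are descriptions and were not tested, and a match is not a site. Among the other motifs searched, CACCTG was in 29.1% of the genes that rose paired against 21.7% of all. TGACNNNGC of the antioxidant response element was in 19.1% against 16.6%, and the NF-kB decamer in 4.26% against 6.3%. Printed next are the 120 bases before the start of 4 genes that rose and are described below, an interleukin, a matrix protease, a protease receptor and a T-cell ligand, with the AP-1 letters in capitals. They begin 12 bases before the start in Il1a (chr2:129309973-129310092, minus strand), 63 in Mmp10 (chr9:7502222-7502341, plus strand), 69 in Plaur (chr7:24462363-24462482, plus strand) and 42 in Cd80 (chr16:38458813-38458932, plus strand), and overlap no other motif searched.
Il1a: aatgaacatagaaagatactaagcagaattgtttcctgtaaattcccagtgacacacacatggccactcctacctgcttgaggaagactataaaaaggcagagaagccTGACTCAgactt
Mmp10: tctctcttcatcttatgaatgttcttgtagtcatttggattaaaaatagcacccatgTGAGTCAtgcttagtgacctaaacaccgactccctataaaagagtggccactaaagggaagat
Plaur: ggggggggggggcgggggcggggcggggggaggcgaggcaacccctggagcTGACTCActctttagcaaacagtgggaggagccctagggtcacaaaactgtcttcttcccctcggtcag
Cd80: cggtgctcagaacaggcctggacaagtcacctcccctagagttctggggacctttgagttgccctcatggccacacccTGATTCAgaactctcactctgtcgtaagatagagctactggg

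Cytokines and chemokines stood higher as a list, in 22 of 25 members, with a median of 0.77. In both pairs 18 were higher, against 5276 of all 21237 genes tested. No member was called unpaired and 8 were called higher paired (background 0.914%). Il1a, the membrane-bound interleukin 1 that epithelial cells release when injured, stood at 53.4 and 35.8 CPM in the controls and at 402 and 305 CPM in the knockdown. Both pairs moved alike (log2 2.99, paired adjusted p = 0.000418), while the unpaired fit gave an SE of 1.7 and an adjusted p of 0.939. Both fits share their spread over all 6 groups, and the cause of this gap was not tested. Csf3, the granulocyte growth factor G-CSF, went from 115 and 133 CPM to 490 and 478 CPM (paired adjusted p = 0.00945). Ccl2, which attracts monocytes, went from 12.7 and 11.3 CPM to 50.1 and 43.1 CPM (paired adjusted p = 0.000989). For all 3 genes both knockdown replicates lay above both controls.

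Other cytokines moved less or less evenly. Lif, a ligand of the interleukin 6 family, went from 50.4 and 22.7 CPM to 140 and 69.4 CPM, and Il11, of the same family, from 0.725 and 0.678 CPM to 1.69 and 1.94 CPM. Il33, an alarmin, went from 43.7 and 33.8 CPM to 80.8 and 55.6 CPM, and Cxcl16, a transmembrane chemokine, from 67.6 and 80.3 CPM to 115 and 131 CPM. Csf2, the growth factor GM-CSF, was at 0.124 and 0.13 CPM in the controls, and at 7.74 CPM in knockdown 1 but 0.913 CPM in knockdown 2, with log2 differences of 5.81 and 2.69 in the pairs. The paired adjusted p values of these 5 genes ran from 0.0174 for Lif to 0.0412 for Csf2 and Il33. Called receptors, chosen here after their values were seen, were Il1rl1, the receptor of Il33, which went from 1.26 and 2.62 CPM to 3.97 and 6.46 CPM, and Il13ra2, a decoy receptor, from 12.5 and 11.3 CPM to 136 and 96.7 CPM (paired adjusted p = 0.00187 and 0.016).

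Prostaglandin genes did not move as a list, with 8 of 15 higher and a median of 0.06. Its inducible enzyme did in the paired fit: Ptgs2 (COX-2) was at 232 and 95.9 CPM in the controls and at 998 and 538 CPM in the knockdown. Both knockdown values lay above both control values, although the controls themselves differed by more than 2-fold (log2 2.23, adjusted p = 0.000631 paired and 0.65 unpaired). A long noncoding RNA near it, Ptgs2os2, went from 1.82 and 2.8 CPM to 6.98 and 8 CPM (paired adjusted p = 0.0128), named after its values were seen. Genes of the NF-kB pathway and its feedback had 12 of 17 members higher, none called in either fit, and a median of 0.09. Tnfaip3, the feedback inhibitor A20, stood at 111 and 72 CPM against 266 and 113 CPM (paired adjusted p = 0.0733). Ikbke, a kinase of the IKK family that was in no list, rose from 31.5 and 34.9 CPM to 100 and 88.7 CPM (log2 1.51, SE 0.26, adjusted p = 0.0486 unpaired and 0.00959 paired).

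**Figure D2:**
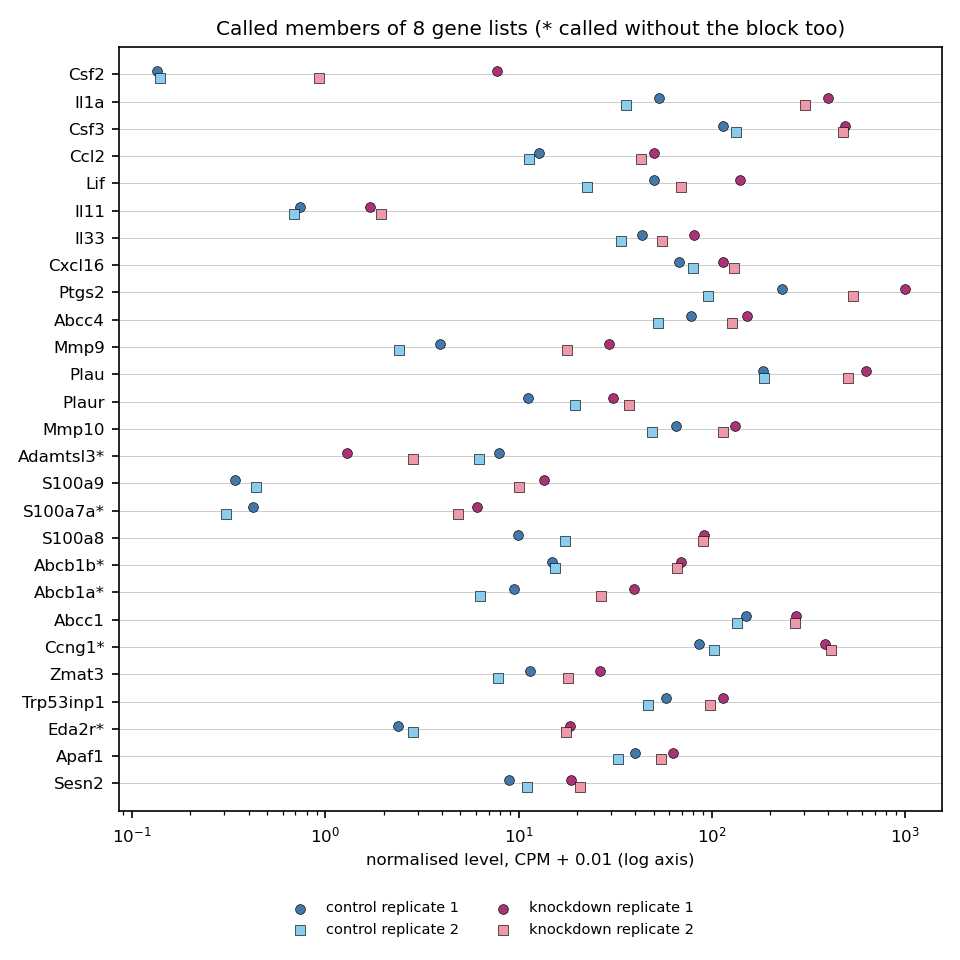
Level in each of the 4 M6 replicates (CPM plus 0.01, log axis) of every member called in either fit in 8 lists: cytokines, prostaglandin genes, matrix proteases, S100 proteins, ABC transporters and 3 lists of p53 targets, with controls in dark and light blue and knockdown in purple and pink, circles for replicate 1 and squares for replicate 2. Knockdown replicates lie to the right of both controls for all genes shown except Adamtsl3, and an asterisk marks genes that the unpaired fit called too.

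Of 16 genes of small calcium-binding S100 proteins 10 were higher and 6 lower, with a median of 0.11. The paired fit called 3, all higher (background 0.914%). S100a7a (chromosome 3, 90654017 to 90658669), a relative of psoriasin, stood at 0.414 and 0.295 CPM in the controls and at 6.08 and 4.86 CPM in the knockdown (log2 3.98, SE 0.39, adjusted p = 0.00144 unpaired and 0.000989 paired). S100a8 and S100a9, which pair to form calprotectin, were called in the paired fit only. S100a8 went from 9.98 and 17.4 CPM to 91.3 and 90 CPM, and S100a9 from 0.331 and 0.425 CPM to 13.5 and 10.1 CPM (paired adjusted p = 0.042 and 0.00502). Ltf, which encodes the iron-binding protein lactoferrin, went from 64.7 and 57.3 CPM to 313 and 255 CPM (paired adjusted p = 0.000665), named after its values were seen. S100a8, S100a9 and Ltf are also abundant in neutrophils, and the 10 immune markers summed to 8.38 to 13.8 CPM. Among them Csf1r, of macrophages, stood at 6.94 to 11.3 CPM, Ptprc, of all leukocytes, at 0.166 to 0.89 CPM and Lyz2, of myeloid cells, at 0.0168 CPM at most, and their part in these results was not tested.

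Secreted proteases and their receptor formed a further group. Plau, the urokinase plasminogen activator, stood at 185 and 186 CPM in the controls and at 630 and 508 CPM in the knockdown, and its receptor Plaur at 11.2 and 19.5 CPM against 30.9 and 37.2 CPM. Mmp9, a gelatinase, went from 3.91 and 2.4 CPM to 29.3 and 17.9 CPM, and Mmp10, a stromelysin, from 65 and 49.2 CPM to 132 and 114 CPM. All 4 were called in the paired fit (adjusted p from 0.000614 for Mmp9 to 0.00848 for Plaur) and none unpaired. Adamtsl3, a secreted ADAMTS-like protein without protease activity, fell from 7.91 and 6.2 CPM to 1.29 and 2.82 CPM (log2 -1.75, SE 0.30, adjusted p = 0.0478 unpaired and 0.0385 paired). Of 24 genes in the list 13 were higher and 11 lower, with a median of 0.31. The paired fit called 4 higher and 1 lower (background 0.914% and 0.466%).

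Genes of adhesion and matrix were called in both directions. Itga2, the collagen-binding integrin subunit alpha 2, stood at 9.09 and 6.35 CPM against 55.1 and 29.8 CPM (log2 2.46, SE 0.39, adjusted p = 0.0274 unpaired). Col8a1, a short-chain collagen, rose from 78.5 and 90.1 CPM to 285 and 243 CPM (adjusted p = 0.0377 unpaired), and Dcbld2, a membrane protein with a neuropilin-like outer part, from 244 and 290 CPM to 648 and 665 CPM (0.0204). Has2, a hyaluronan synthase, went from 183 and 146 CPM to 414 and 336 CPM and was called in the paired fit (adjusted p = 0.00681). Chains of collagen VI went the other way in the paired fit. Col6a1 stood at 278 and 233 CPM against 123 and 110 CPM, and Col6a2 at 99.3 and 73.8 CPM against 44 and 38.7 CPM (adjusted p = 0.00528 and 0.00729). Fbln5, a protein of elastic fibres, went from 1.84 and 1.95 CPM to 0.274 and 0.392 CPM (0.00182). With the M6 lane alone Col6a1 differed by -1.26 and Fbln5 by -3.03, and the unpaired fit called both (adjusted p = 0.0488). Of the lists, 11 of 19 integrin subunits and 7 of 16 laminin and basement membrane genes were higher. Itgb7, an integrin subunit of lymphocytes, was called too in the paired fit, at 0.0621 and 0.743 CPM against 3.16 and 4.4 CPM (0.021).

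Growth factor genes are given by list, beside a background of 0.122% called higher unpaired and 0.914% paired. No list was tested as a whole. Areg, the EGF receptor ligand amphiregulin, stood at 12.7 and 9.86 CPM against 52.2 and 35.1 CPM (log2 1.95, SE 0.26, adjusted p = 0.0116 unpaired). Nrg1, the ligand neuregulin 1, went from 5.9 and 5 CPM to 13.6 and 12.9 CPM (paired adjusted p = 0.0235). Of 13 genes of EGF receptors and their ligands 6 were higher, with 1 called higher unpaired and 2 paired. Hgf, hepatocyte growth factor, rose from 3.04 and 2.66 CPM to 10 and 7.44 CPM (log2 1.62, SE 0.24, adjusted p = 0.0204 unpaired), while its receptor Met stood at 283 and 215 CPM against 408 and 331 CPM (0.0779 paired, 0.731 unpaired). Of 9 genes of the HGF and Met list 3 were higher and 5 lower, with 1 called higher in each fit. Among targets of YAP and TEAD 11 of 13 were higher, with a median of 0.44. Of these Ankrd1, a nuclear ankyrin protein, at 100 and 65.2 CPM against 213 and 148 CPM, and Edn1, endothelin 1, at 3.31 and 2.61 CPM against 20.5 and 15 CPM, were called in the paired fit (0.00537 and 0.0226).

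Of 23 genes of the TGF-beta and activin pathway 8 were higher, with a median of -0.20, and those called moved in both directions. Fst (chromosome 13, 114452290 to 114458951), whose product follistatin binds activin, stood at 4.76 and 7.41 CPM in the controls and at 27.2 and 31.3 CPM in the knockdown (log2 2.26, SE 0.25, adjusted p = 0.00221 unpaired and 0.000989 paired). Inhba, the subunit of activin A, rose in the paired fit from 134 and 82.9 CPM to 256 and 174 CPM, and Inhbb, the subunit of activin B, fell from 676 and 506 CPM to 302 and 253 CPM (adjusted p = 0.0131 and 0.00639). Tgfbi, a TGF-beta-induced matrix protein, fell from 5.86 and 6.73 CPM to 2.32 and 2.4 CPM (0.0389 paired). Bmper, a secreted BMP-binding protein, rose from 9.34 and 8.71 CPM to 18.2 and 19.8 CPM (adjusted p = 0.0478 unpaired). Among Wnt genes, 9 of 21 of them higher, Wnt7a went from 0.311 and 1.27 CPM to 4.54 and 8.87 CPM and Nkd2, a feedback inhibitor, from 863 and 823 CPM to 357 and 401 CPM (paired adjusted p = 0.00639 and 0.0068).

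Transcription factors of epithelial-mesenchymal transition were read beside epithelial and mesenchymal genes. Of 12 such factors 5 were higher and 7 lower, with 1 called higher unpaired and 2 paired (background 0.122% and 0.914%). Zeb1, a repressor of epithelial genes, stood at 1.43 and 1.89 CPM against 6.37 and 4.69 CPM (log2 1.72, SE 0.23, adjusted p = 0.0125 unpaired and 0.0101 paired). Snai2 rose in the paired fit, from 1.01 and 0.656 CPM to 3.69 and 1.57 CPM (0.0103), and Zeb2 stood at 5.18 and 3.61 CPM against 9.62 and 6.97 CPM (0.0803 paired). None of 28 genes of epithelial identity was called in either fit (background 0.137% unpaired and 1.38% paired), with 8 higher, 20 lower and a median of -0.11. None of 18 mesenchymal genes was called higher, and 2 were called lower paired (background 0.466%). Vim, the intermediate filament vimentin, stood at 377 and 482 CPM against 247 and 308 CPM (paired adjusted p = 0.0675). Postn and Tnc, matrix proteins of activated stroma, fell in the paired fit, at 67.7 and 11.8 CPM against 8.9 and 4.51 CPM and at 204 and 63.9 CPM against 122 and 41.8 CPM (0.0237 and 0.035). Their controls differed several-fold between replicates, and for Tnc the groups overlap. With the M6 lane alone the log2 differences were -2.70 for Postn and -0.77 for Tnc, against -2.57 and -0.71.

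Several called genes handle redox and metabolism. Slc7a11, the cystine importer that feeds glutathione synthesis, stood at 11 and 6.77 CPM in the controls and at 94.7 and 39.5 CPM in the knockdown (log2 2.92, SE 0.44, adjusted p = 0.0217 unpaired and 0.000675 paired). It was the only called member of 22 NRF2 and glutathione genes (background 0.122% higher unpaired and 0.914% paired). Of these 22 genes 13 were higher, with a median of 0.26. Ephx1, the microsomal epoxide hydrolase, rose from 30.7 and 38.2 CPM to 73.5 and 95 CPM (0.0274 unpaired), and Ass1, argininosuccinate synthase, from 4.7 and 8.66 CPM to 21.2 and 32.3 CPM (0.03). The glutathione transferases Gsta1 and Gsta2, of closely related sequence and so uncertain one by one, went from 0.228 and 1.04 CPM to 4.22 and 6.28 CPM and from 0 and 0.256 CPM to 1.86 and 1.92 CPM (paired adjusted p = 0.0125 and 0.0484). Hk2, a hexokinase, stood at 49.1 and 57.1 CPM against 165 and 112 CPM, and Hif1a, the oxygen-regulated transcription factor, at 529 and 412 CPM against 951 and 744 CPM (0.0192 and 0.0111 paired). Of 22 hypoxia and glycolysis genes 9 were higher, with a median of -0.01 and 1 called higher paired (background 0.914%). Of 22 genes of cholesterol synthesis 19 were higher, with a median of 0.18 and only Hsd17b7 called (41.5 and 41.1 CPM against 62.3 and 65.1 CPM, paired adjusted p = 0.0427).

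**Figure D3:**
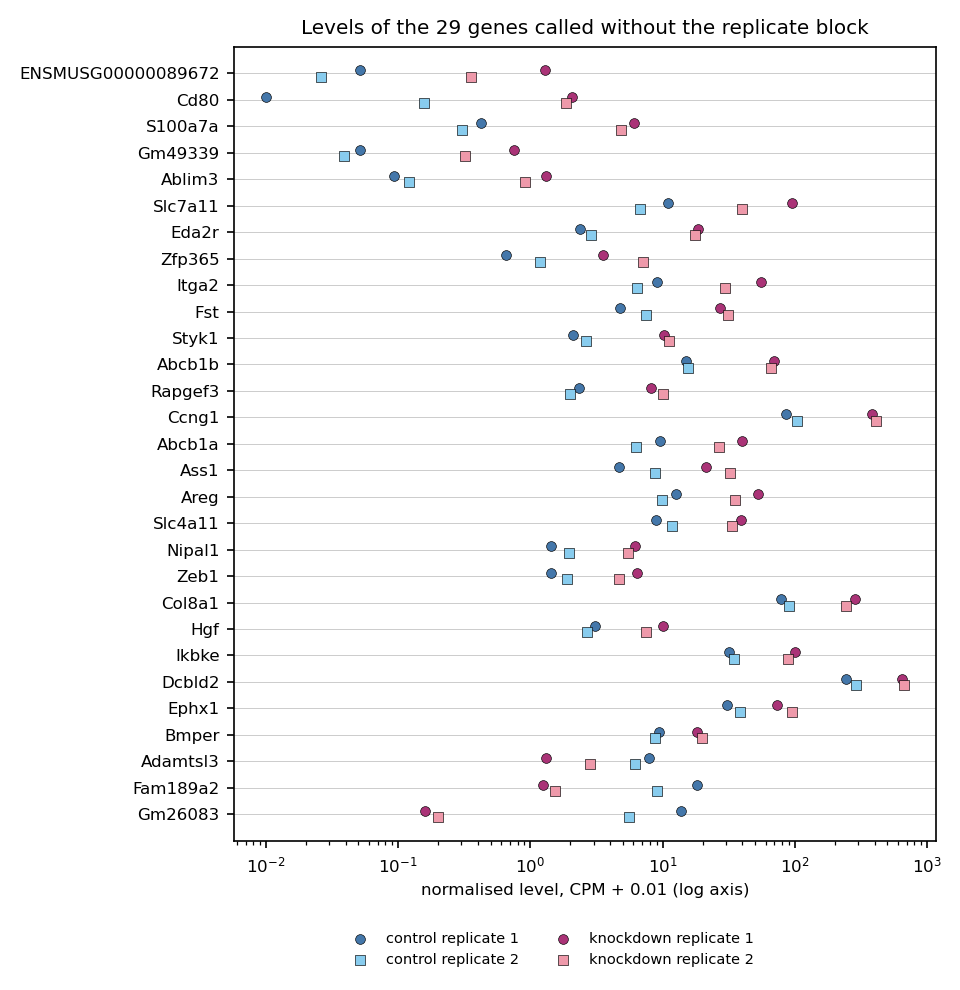
Level in each of the 4 M6 replicates (CPM plus 0.01, log axis) of the 29 genes called in the unpaired fit, ordered by log2 difference, with controls in dark and light blue and knockdown in purple and pink, circles for replicate 1 and squares for replicate 2. For 26 genes both knockdown replicates lie to the right of both controls, and for Adamtsl3, Fam189a2 and Gm26083 both lie to the left.

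The other genes of the 29 had varied roles. Rapgef3, a cyclic AMP sensor also called EPAC1, stood at 2.32 and 1.97 CPM against 8.19 and 10.1 CPM (log2 2.10), and Styk1, a receptor-like kinase, at 2.07 and 2.63 CPM against 10.3 and 11.2 CPM (2.19). Zfp365, a zinc finger protein, went from 0.642 and 1.17 CPM to 3.52 and 7.03 CPM (2.50). Slc4a11, a membrane transporter, went from 8.84 and 11.8 CPM to 39.2 and 33.6 CPM, and Nipal1, a magnesium transporter, from 1.43 and 1.94 CPM to 6.16 and 5.42 CPM. Unpaired adjusted p values ran from 0.0125 to 0.0398 over these 5. Cd80, a ligand of T-cell receptors CD28 and CTLA-4, stood at 0 and 0.146 CPM against 2.05 and 1.84 CPM, and Ablim3, an actin-binding LIM protein, at 0.0828 and 0.11 CPM against 1.29 and 0.902 CPM (both 0.0478). Fam189a2, a membrane protein also named Entrep1, fell from 18.2 and 8.98 CPM to 1.24 and 1.53 CPM (log2 -3.28, SE 0.54, 0.0343). Gm49339 and a gene without a GENCODE entry (ENSMUSG00000089672) rose from under 0.05 CPM in each control, to 0.738 and 0.308 CPM and to 1.27 and 0.342 CPM.

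Gm26083, a small Cajal body RNA gene on chromosome 11 (117077243 to 117077435), was called lower but its counts were not stable between columns of the same replicate. By column it stood at 14.3 CPM in control 1, at 0.12, 0.167 and 12.4 CPM in the 3 columns of control 2, and at 0.156 to 0.202 CPM in the knockdown columns. Columns of control 2 thus lay on both sides of the difference, and with the M6 lane alone it was not called (adjusted p = 0.246 unpaired). In control 2, 43 of 13397 genes with 100 counts or more in any column had 0 in another.

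The 10 uncalled genes with the smallest unpaired p were all called in the paired fit. Besides Hk2 they were Chst11, a chondroitin sulfotransferase, at 5.38 and 5.02 CPM against 14.6 and 10.4 CPM, and Naip2, an inflammasome sensor with near copies in the genome, at 1.41 and 1.77 CPM against 4.6 and 3.67 CPM. They included Rnd1, at 13 and 13.5 CPM against 25.7 and 25 CPM, Apobec1, an RNA-editing deaminase, at 1.9 and 2.53 CPM against 8.02 and 5.51 CPM, Apobr, a lipoprotein receptor, at 2.92 and 3.05 CPM against 9.05 and 8.08 CPM, and Nucb2, a calcium-binding protein, at 16.3 and 22.6 CPM against 40.9 and 41.5 CPM. Lower in the knockdown were Dysf, the membrane repair protein dysferlin, at 2.24 and 1.92 CPM against 0.169 and 0.566 CPM, Prickle1, of planar cell polarity, at 0.787 and 0.503 CPM against 0.0633 and 0.162 CPM, and Apol6, of the apolipoprotein L family, at 3.35 and 1.94 CPM against 0.759 and 0.762 CPM. Unpaired adjusted p values of the 10 ran from 0.0552 to 0.0646.

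Of the 99 genes called lower in the paired fit, some further ones were named after their values were seen. Mycn, the oncogene N-Myc, stood at 9.42 and 7.47 CPM against 1.35 and 1.76 CPM, and Vdr, the vitamin D receptor, at 59.9 and 43.6 CPM against 25.5 and 22.4 CPM (paired adjusted p = 0.00497 and 0.0199). Car12, a membrane carbonic anhydrase, went from 315 and 269 CPM to 122 and 146 CPM, Cd200, an immune checkpoint ligand, from 113 and 113 CPM to 50.4 and 57.4 CPM, and Pla2g7, which breaks down platelet-activating factor, from 152 and 171 CPM to 59.5 and 68.8 CPM (0.00916, 0.00941 and 0.00413). Aldh1a3, which makes retinoic acid, went from 64.2 and 36.6 CPM to 24.6 and 17.8 CPM (0.0392). Of 27 MAPK feedback and immediate early genes 15 were higher and 12 lower, with a median of 0.08. The paired fit called 1 higher and 2 lower (background 0.914% and 0.466%). Ier3, an early response gene, went from 119 and 86 CPM to 226 and 219 CPM (0.0335). Fos stood at 213 and 14.5 CPM in the controls and at 76.4 and 6.84 CPM in the knockdown, and Egr2 at 24.8 and 1.02 CPM against 4.96 and 0.487 CPM (0.00748 and 0.0242). Replicate 1 held far more Fos and Egr2 RNA than replicate 2 in each group, so the groups overlap and the fall is seen only within pairs. Among genes called higher and named after their values were seen, Hmga2, a chromatin protein of embryonic tissue, went from 17.7 and 14.6 CPM to 55.2 and 39.8 CPM and Smad3, a signal carrier of TGF-beta, from 82.8 and 81.7 CPM to 145 and 144 CPM (0.00189 and 0.0402). Prl2a1 and Prl2c3, of the placental prolactin family whose near-identical members share reads, went from 0.269 and 0.325 CPM to 34 and 15.1 CPM and from 0.0414 and 0.558 CPM to 3.46 and 6.41 CPM (0.00459 and 0.002).

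Several lists leaned lower without a single call in either fit. Notch ligands, receptors and targets had a median of -0.69, with 13 of 14 members lower. In both pairs 11 were lower, against 6122 of all 21237 genes tested. Hey1, a Notch target, stood at 75.9 and 91.3 CPM against 27.5 and 35.3 CPM and missed the threshold (paired adjusted p = 0.0508), and Notch3, a receptor, stood at 125 and 70.2 CPM against 49.3 and 41 CPM (0.0907). Genes of DNA replication and the G1/S step had a median of -0.27 (pair medians -0.33 and -0.27), with 34 of 35 lower. Rfc4, of the clamp loader, stood at 49.7 and 54.9 CPM against 30.8 and 30.5 CPM (0.12 paired). Mitosis genes were lower in 25 of 27, with a median of -0.14.

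For other lists the pairs did not move alike. All 77 cytosolic ribosomal protein genes were lower, with a median of -0.23, but the pair medians were 0.07 and -0.40, with the M6 lane alone the median was 0.02, and without control 2 it was 0.39. Replication-dependent histones were lower in 61 of 65, with pair medians of -0.08 and -0.55 and a median of 0.16 without control 2. Ribosomal protein genes summed to 32100 CPM in control 1 and 64300 in control 2, against 32800 and 49400 CPM in the knockdown, highest in both groups in replicate 2. Interferon response genes were lower in 31 of 34, but at a median of -0.71 in pair 1 and 0.02 in pair 2. Isg15, an interferon-induced modifier, stood at 16 and 7.5 CPM against 7.93 and 5.65 CPM, and Oasl2, an oligoadenylate synthetase-like protein, at 28.4 and 14.3 CPM against 16.3 and 10.4 CPM (neither called). Without control 1 the interferon median was 0.14.

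**Figure D4:**
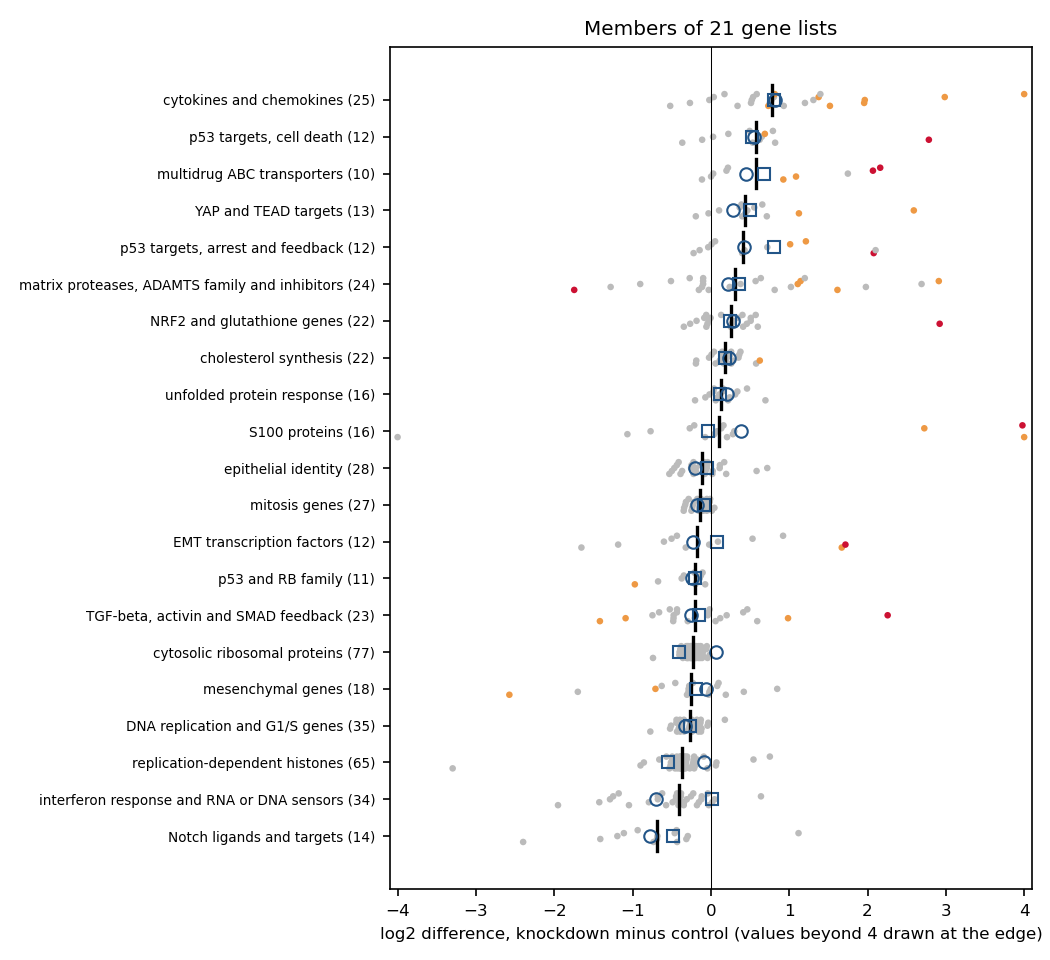
Log2 difference between knockdown and control of every tested member of 21 gene lists (number in brackets), in red where called in both fits, orange where called only with the replicate block and grey otherwise, with values beyond 4 drawn at the edge of the axis. Black bars are list medians, open circles and squares the medians of pair 1 and pair 2, which lie close together for cytokines (0.82 and 0.81) and apart for interferon response genes (-0.71 and 0.02).

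Transcripts were read next, since ESRP proteins act on splicing. Of 66939 transcripts edgeR called 4 (0.00598%) unpaired and 0 paired, where 3126 had an unadjusted p under 0.05. Ccng1-201 and Abcb1b-201 rose like their genes, by log2 2.09 and 2.22 (adjusted p = 0.0467 and 0.0492). Phc1-211, of a Polycomb gene, held 173, 114, 188 and 240 counts in the control columns and 0 in all 3 knockdown columns (adjusted p = 0.0467). Extl2-202, of a glycosyltransferase gene, held 97, 241, 703 and 153 counts and 0 in all 3 (0.0492). Against a floor of 3 counts in each knockdown replicate these were at least 65.8-fold and 65.6-fold lower, by counting error alone. Their genes did not move with them: Phc1 stood at 14.7 and 14.8 CPM against 11 and 11.3 CPM and Extl2 at 18.7 and 20.1 CPM against 18.5 and 19.5 CPM (adjusted p = 0.963 and 1). StringTie's estimates for single transcripts varied between columns of a replicate, with 1874 of 30696 transcripts of control 2 at 0 in 1 column and at 100 counts or more in another, so the zeros set no firm bound.

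The share of each transcript in its gene was compared over the 4 M6 replicates. Of 8388 genes 2 were called (0.0238%), with 186 at an unadjusted p under 0.05, and 0 of 25 ESRP-regulated genes. Alx1-203, of a homeobox gene, held 0% of the gene's counts in both controls and 100% in both knockdown replicates, in every column, while Alx1-201 held the reverse (limma adjusted p = 0.0319). Tmod2-202, of an actin-capping tropomodulin gene, held 0 and 0.114% in the controls against 100 and 99.5% (0.0363). In both genes the transcripts that exchanged places have the same coding length, 978 bases in Alx1 and 1053 in Tmod2, with 4 and 5 exons in Alx1-201 and Alx1-203 and 10 in each of the Tmod2 models. Tmod2-201 held 0% in 1 column of control 2 and 89.5 and 85.4% in the others, so its share was unstable between columns. The levels of these genes were low, at 0.465 to 1.28 CPM for Alx1 and 2.23 to 9.07 CPM for Tmod2, which fell in the paired fit (adjusted p = 0.0397).

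Cd44, which encodes a receptor for hyaluronan and is spliced by ESRP proteins, was given by rule although it was not called. As a gene it stood at 117 and 91.2 CPM against 187 and 162 CPM (log2 0.74, edgeR adjusted p = 0.604 unpaired and 0.084 paired). Cd44-202, with 14 exons and 1740 coding bases, held 16.8 and 13.6% of the counts in the controls and 57.5 and 57.3% in the knockdown. It lay at 55.6 to 60.1% in all 3 knockdown columns and at 12.4 to 17.5% in all 4 control columns. Cd44-201, the model with most exons (19, 2340 coding bases), held 14.8 and 14.9% against 2.17 and 2.73%, and Cd44-205 (12 exons) held 24 and 28.9% against 13.7 and 16.2%. The adjusted p of Cd44 was 1 in the fit of M6 alone. Fgfr2, another ESRP target, was at 1.72 to 2.71 CPM, and Fgfr2-226 held 65.6 and 32% against 87.6 and 68.1%, but 0 to 69.1% over the columns of control 2 alone.

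The 29 called genes were set beside the overexpression experiments, whose controls are other samples. None of the 29 was called there, where 2 genes were called in M27H4 (0.00942%) and 1 in 3T3-L1 (0.00471%). Esrp2-as, the overexpressed RNA, was among those called in both lines, at log2 5.62 in M27H4 and 7.08 in 3T3-L1 (edgeR adjusted p = 0.00152 and 0.00258). Log2 differences of the 29 genes ran from -0.66 to 0.60 in M27H4 and from -1.49 to 0.27 in 3T3-L1. Opposite signs to the knockdown were seen for 18 of 29 in M27H4 and for 16 of 29 in 3T3-L1. The share of opposite signs over all genes tested was not counted, so these counts are not read as a reversal. The difference between the knockdown effect and the overexpression effect passed the test for 5 of the 29 in M27H4 (6 of 21237 genes, 0.0283%): S100a7a, Ccng1, Abcb1b, Fst and Gm26083. In 3T3-L1 it passed for 4 (5 of 21237, 0.0235%), the same genes without Fst. Esrp2-as, which is not among the 29, passed too (edgeR adjusted p of the difference 0.00534 from M27H4 and 0.00257 from 3T3-L1). For Ccng1 the log2 effects were 2.08 in the knockdown, 0.04 in M27H4 and -0.04 in 3T3-L1 (edgeR adjusted p of the difference 0.0167 and 0.03), and for Abcb1b 2.16, -0.02 and -0.08 (0.0178 and 0.043). In the paired fit the difference passed for 112 genes in M27H4 and 55 in 3T3-L1.

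How far single libraries carried these calls was read by leaving out each in turn. S100a7a, Ccng1, Abcb1b, Fst and Gm26083 were called in the unpaired fit without any 1 of the 4 replicates, and the other 24 lost the call at least once. The count of calls was 6 without control 1, 60 without control 2, 11 without knockdown 1 and 47 (25 higher and 22 lower) without knockdown 2, each from a fit in which the lone replicate is assumed to vary like the other groups. Leaving out 1 replicate changed the sign of the list medians of p53 metabolism, NF-kB, hypoxia, interferon, histone, ribosomal protein, S100, Wnt, laminin, EMT factor, EGF receptor, HGF and Met, immediate early and mesenchymal genes. The medians of cytokines, ABC transporters, p53 arrest and death genes, YAP targets, Notch genes, replication and mitosis kept theirs in all 4 such fits, though not their size. They ran from 0.50 to 0.92 for ABC transporters, 0.28 to 0.68 for YAP targets, -0.89 to -0.43 for Notch genes, -0.49 to -0.14 for replication and -0.27 to -0.07 for mitosis. In bulk RNA, fewer cells that express a gene and less RNA per cell cannot be told apart.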

How the data were processed

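Ribosomal RNA-depleted, strand-specific total RNA libraries were sequenced. The authors deposited tables of expected counts per gene and transcript, estimated from coverage with StringTie after cutadapt and HISAT2 on mm10 (GRCm38), per the submitters' processing notes, which give no versions. Strand setting and annotation release are not given in the sources used here. Names and coordinates come from GENCODE M21 (48058 of 48440 gene IDs matched; the others held 0.0515% of counts). Deposited CPM tables were not used, and 2 of their columns match no sample.

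Technical columns were summed, and genes filtered with filterByExpr. edgeR 4.0.16 (R 4.3.3) fitted 1 TMM-scaled robust quasi-likelihood model over 6 groups (8 residual degrees of freedom), adjusted by Benjamini and Hochberg. The paired fit adds replicate number within line as a block (4 residual degrees of freedom). It was used because deviations of same-numbered samples from their group means correlated in all 7 pairs (0.297 to 0.658 over 11652 genes, with the 2 M6 pairs mirror images). In M27H4, 2 pairs with different numbers also correlated (0.3 and 0.192). Pairing thus rests on the data, not on a label. SE is the log2 difference over the root of F. limma 3.58.1 tested transcript shares after an arcsine square root transform, over genes with 50 counts in every M6 replicate. The planned share test over all groups made calls on counts simulated with no change, so its 11 calls are not used and the fit of M6 alone is given. DESeq2 1.42.0, limma voom, other scaling, filters and samples were alternatives. Promoter windows are RefSeq's on GRCm38.p6, without chromosome 18. Intervals and floors cover counting error only.

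The members and gene lists were chosen with earlier results of these data known. Named were Esrp2-as, Esrp2, every gene called unpaired, up to 4 members of a list with the smallest p and at least 1 CPM, the 10 uncalled genes with the smallest p, called transcripts, Cd44 and Fgfr2. Genes called only in the paired fit were named after their values were seen.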

Additional observations from a re-analysis of the deposited data

How the results depend on the processing

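The unpaired count of 29 called genes was 235 by DESeq2, 74 by limma voom, 64 with no filter on low counts and 559 with each column as a library, where technical columns pass for samples. It was 0 with only the M6 replicates in the fit, 32 with RLE factors, 41 with the M6 lane alone and 6 to 60 leaving out a replicate. With the replicate block it was 293, or 424 with the M6 lane alone and 298 with RLE factors, both of the last chosen after seeing the data. The 4 called transcripts became 457 by DESeq2, 66 with the M6 lane alone, 13 by limma voom, 2 with no filter, 0 with the replicate block or only M6 replicates, and 0 to 632 leaving out a replicate. The 11 share calls over all groups became 25 with the M6 lane alone, 1 at 200 counts, 7 with the replicate block, 2 with only M6 replicates and 48 to 383 leaving out a replicate. The difference from M27H4 passed for 84 genes by DESeq2 and 112 with the replicate block, and from 3T3-L1 for 75 and 55, against 6 and 5. Esrp2-as was called by DESeq2 (log2 -1.95, adjusted p = 0.0314) and with columns as libraries (-1.79, 0.0139), and ran from -2.36 to -1.65 leaving out a replicate, where Esrp2 ran from -0.26 to -0.04. No named gene reversed under these alternatives except without control 1, where Egr2 was at 1.49, Fos at 1.63 and Tnc at 0.46, the top of ranges from -4.70, -4.04 and -1.67 leaving out a replicate. The median over all genes was 0.08 without control 2 and -0.17 without knockdown 2, against -0.03. The cause of these differences was not tested. With 2 replicates a group, and spread shared with other lines, a missed threshold does not show that a gene was unchanged.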
